A study of Homo sapiens with 8 samples.

Results

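Neurexins, neuroligins and the scaffolds that hold receptors at a synapse are described here in MP38 cells, a human uveal melanoma (UM) cell line. The genes were listed by name: the neurexins NRXN2 and NRXN3, the neuroligins NLGN1, NLGN2 and NLGN3, the postsynaptic scaffolds DLG4, SHANK1 and SHANK2, and CNTNAP2, a neurexin superfamily member of the axon. They are 9 of the 35238 gene symbols in the deposited counts, and 8 of them passed the filter on low counts that 15085 genes passed in all.

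Neurexins sit in the membrane of the presynaptic terminal and reach across the cleft to neuroligins in the postsynaptic membrane. Inside the receiving cell, neuroligins bind PSD-95, the product of DLG4, and SHANK proteins form the deeper layer of the postsynaptic density. In neurons these genes set which synapses form and how strongly they transmit, and several of them are risk genes for autism. Melanocytes share the neural crest as an origin with peripheral neurons and glia.

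All 8 libraries came from the same BAP1-mutant line, grown in separate wells for 24 h. The control wells received 0.1% DMSO alone. Drug wells held romidepsin at 40 nM, quisinostat at 40 nM or mivebresib at 1200 nM, in the same share of DMSO. Romidepsin and quisinostat inhibit histone deacetylases (HDAC), mivebresib blocks the bromodomains of BET proteins, and bulk RNA was sequenced from 2 wells in each of the 4 groups. The p-values therefore measure the spread between wells of a single line.

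Total counts per library ran from 28483235 to 29359024. The control libraries differed more from each other than the libraries of any drug group, with a chi-square per degree of freedom of 58.1 against 9.52 to 9.79. Every drug was compared with these same control libraries, so the 3 comparisons are not independent. Levels are given as normalised CPM, counts scaled to library size with TMM factors. TMM, a method that sets the bulk of genes near no change, makes every change here relative to that bulk. A gene was called upregulated or downregulated at an adjusted p below 0.05 in the quasi-likelihood test of edgeR, adjusted by Benjamini-Hochberg over all 15085 genes. The study's own threshold adds a log2 FC, the log2 fold change, beyond 1.5 either way. A change in bulk RNA cannot tell fewer cells that express a gene from less RNA per cell, and gene counts cannot tell the long alpha from the short beta transcripts of a neurexin.

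The annotation used here (GENCODE 29 on GRCh38) places the neurexins at chr11:64606174-64723188 on the minus strand (NRXN2) and chr14:78170373-79868290 on the plus strand (NRXN3). NLGN1 lies at chr3:173396284-174286644, NLGN2 at chr17:7404874-7419860 and NLGN3 at chrX:71144831-71171201, all on the plus strand. DLG4 lies at chr17:7187169-7219841 on the minus strand, 185033 bases from NLGN2. SHANK1 (chr19:50661827-50719450) and SHANK2 (chr11:70467856-71252577) are on the minus strand, and CNTNAP2 (chr7:146116002-148420998) is on the plus strand.

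RefSeq promoter windows on GRCh38.p14, from 250 bases before to 50 bases after a transcript start, were matched for NRXN3, NLGN1, NLGN2, NLGN3, DLG4 and CNTNAP2, 6 of the 9 genes, with 13 windows in all. The 4 windows printed here belong to the most abundant gene, to the gene that fell and to a gene that rose. For NRXN3 they are the first and last starts, because the gene's counts pool both. For DLG4 it is start 2 of the 5 in the direction of transcription, and for NLGN2 the only window matched. That NLGN2 window (chr17:7407595-7407894) lies inside the gene as annotated here, which begins at 7404874 on the plus strand. Capitals mark CpG, and the median over 35116 windows of this length was 14 of them.
NRXN3, first start, chr14:78170123-78170422, plus strand: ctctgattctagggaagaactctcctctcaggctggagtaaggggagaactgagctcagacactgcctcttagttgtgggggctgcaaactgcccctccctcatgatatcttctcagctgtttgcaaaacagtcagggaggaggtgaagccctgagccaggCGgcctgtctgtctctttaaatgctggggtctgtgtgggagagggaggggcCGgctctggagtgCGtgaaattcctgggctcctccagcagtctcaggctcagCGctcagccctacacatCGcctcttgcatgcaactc
NRXN3, last start, chr14:79279130-79279429, plus strand: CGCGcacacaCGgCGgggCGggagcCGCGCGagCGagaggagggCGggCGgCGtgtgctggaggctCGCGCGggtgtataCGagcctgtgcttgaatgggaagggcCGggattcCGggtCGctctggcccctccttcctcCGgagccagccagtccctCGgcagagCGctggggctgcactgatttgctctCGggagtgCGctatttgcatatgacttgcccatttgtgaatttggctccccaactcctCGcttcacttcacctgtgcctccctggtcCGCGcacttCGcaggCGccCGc
DLG4, start 2 of 5, chr17:7219787-7220086, minus strand: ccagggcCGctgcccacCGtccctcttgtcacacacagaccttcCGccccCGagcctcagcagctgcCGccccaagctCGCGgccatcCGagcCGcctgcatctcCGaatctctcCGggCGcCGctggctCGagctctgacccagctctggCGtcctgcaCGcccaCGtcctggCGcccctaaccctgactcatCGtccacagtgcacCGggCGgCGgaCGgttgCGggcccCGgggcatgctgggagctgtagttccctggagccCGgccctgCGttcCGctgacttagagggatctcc
NLGN2, chr17:7407595-7407894, plus strand: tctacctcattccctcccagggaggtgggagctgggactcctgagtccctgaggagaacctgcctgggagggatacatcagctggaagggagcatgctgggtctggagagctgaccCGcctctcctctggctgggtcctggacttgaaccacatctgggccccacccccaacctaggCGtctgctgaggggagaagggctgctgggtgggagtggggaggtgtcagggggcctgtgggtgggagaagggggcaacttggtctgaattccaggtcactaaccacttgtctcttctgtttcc

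The first NRXN3 window held 5 CpG and the last 30, at the 33.7 and 79.3 percentile of all windows, so the starts that feed a single NRXN3 count differ widely in base composition. The DLG4 window held 28 CpG and the NLGN2 window, which lies inside the annotated gene, 2. On both strands, the GC box GGGCGG was found 3 times in the last NRXN3 window and 3 times in the DLG4 window, and in neither of the other windows shown. It occurs in 45.0% of all windows and shares its central CG with the CpG count. TATAAA (in 11.5% of windows), the E-box CATGTG (11.1%) and TTCAGCACC, the left part of the RE1 element (0.376%), were in none of the windows shown.

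In control cells, NLGN2 was the most abundant of the 9 genes per length of exon, at 4.54 ± 0.474 normalised CPM per kb (SD, n = 2). DLG4 followed at 0.897 ± 0.057, then SHANK1 at 0.218 ± 0.0222 and NRXN2 at 0.100 ± 0.0147 on the same scale. Each of these was separated from its neighbour in the order. NLGN1 (0.0692 ± 0.00902), NLGN3 (0.0452 ± 0.0264) and CNTNAP2 (0.0445 ± 0.0208) came next, and the libraries of neighbours among these 3 overlapped. NRXN3 and SHANK2 were lowest, both at 0.0105 CPM per kb, with overlapping libraries.

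The order of the upper genes was the same in every group, NLGN2, DLG4, SHANK1 and NRXN2, but their distances were not. With quisinostat, NRXN2 reached 0.890 ± 0.0101 CPM per kb, next to SHANK1 at 0.923 ± 0.0335, and NRXN3 moved up to 0.110 ± 0.00532, above NLGN1 at 0.0626 ± 0.0268. With mivebresib, DLG4 at 0.275 ± 0.0937 overlapped SHANK1 at 0.201 ± 0.0315. The plot of levels per kb shows NLGN2 above the other genes in every group.

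**Figure D1:**
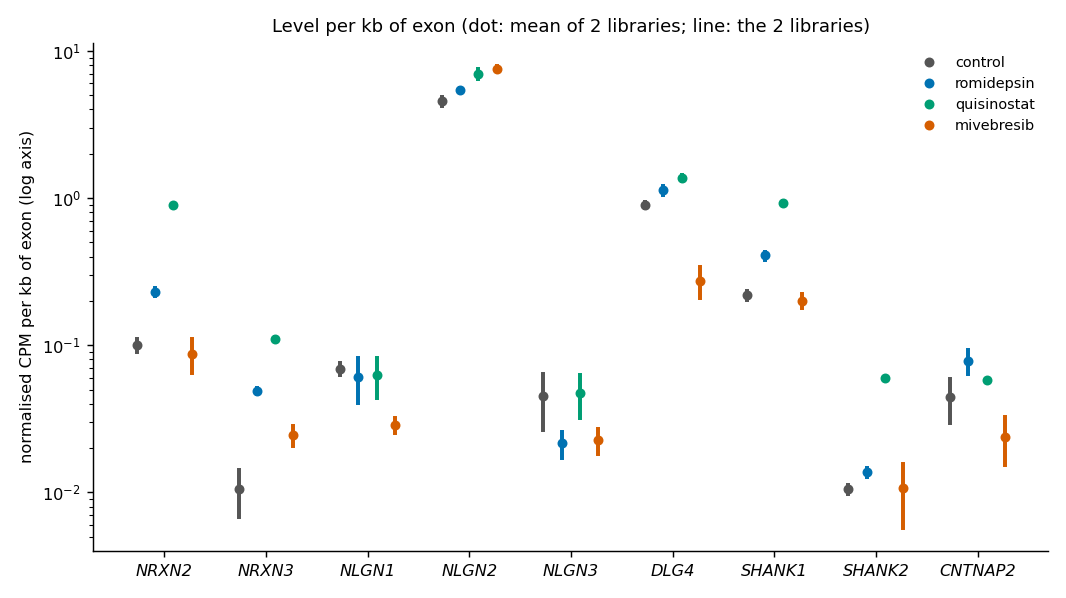
Normalised CPM per kb of exon on a log axis for the 9 genes, with a dot for the mean of each group and a line joining its 2 libraries. NLGN2 was highest in every group (4.54 to 7.57), and NRXN3 and SHANK2 were lowest in the control at 0.0105.

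The neurexins were the genes that moved most with the HDAC inhibitors. NRXN2 was upregulated by romidepsin and more by quisinostat, and NRXN3, nearly silent in control cells, was upregulated by both drugs. SHANK1 rose with both drugs too, while SHANK2, NLGN2 and DLG4 passed the threshold with quisinostat and not with romidepsin. The difference between the drugs was tested directly for each gene and is given after the genes. Mivebresib gave another picture: DLG4 fell, NLGN2 rose, and no other gene of the 8 tested was called.

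**Figure D2:**
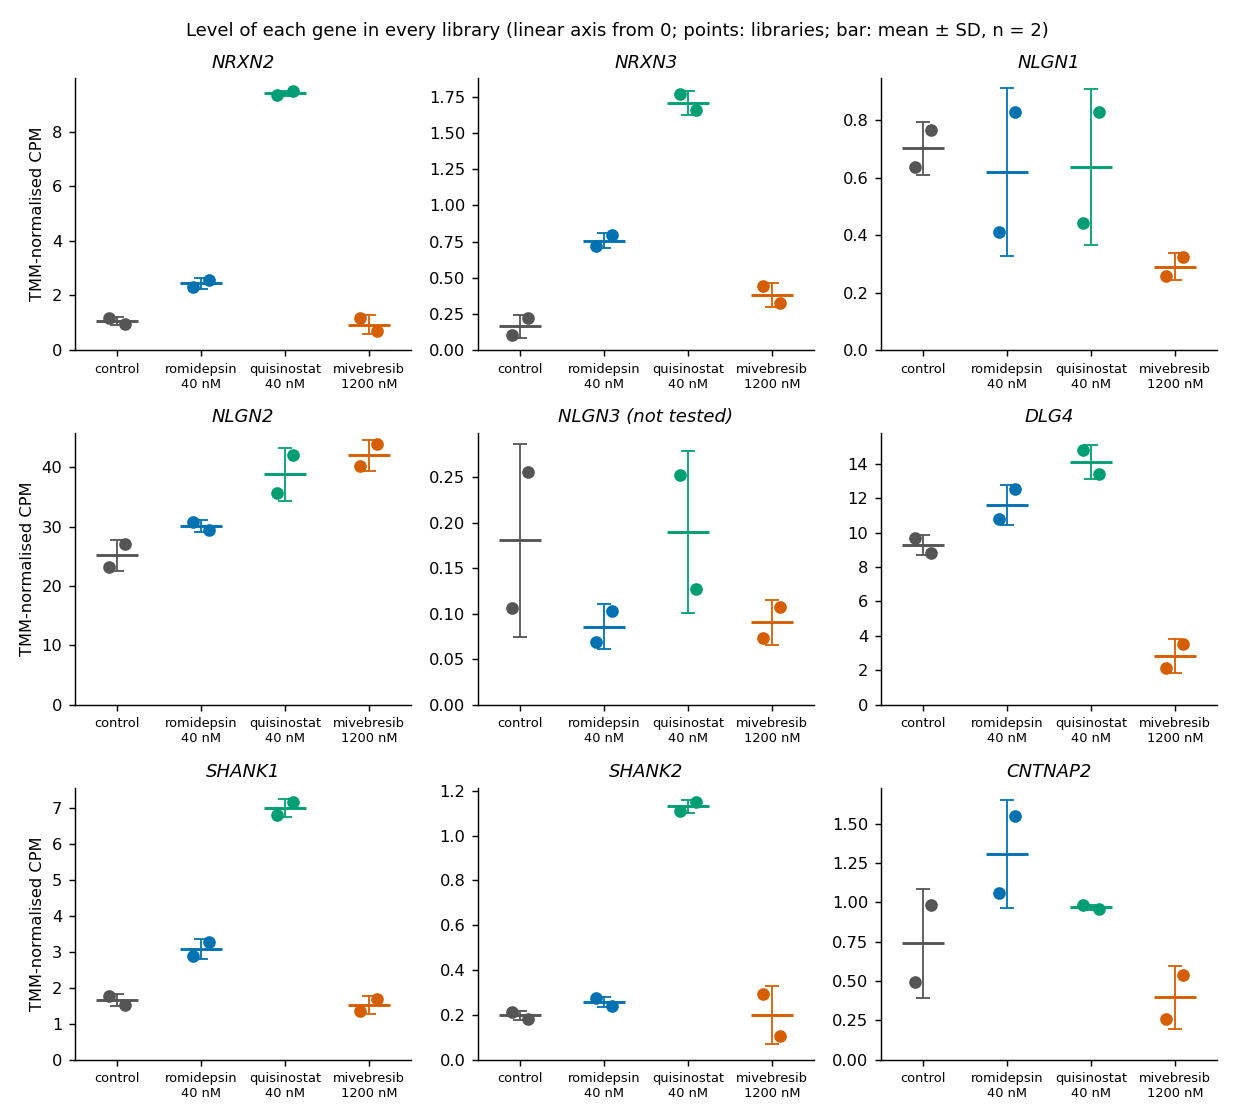
Normalised CPM of each gene in every library, on linear axes that start at 0, with the mean ± SD of each group (n = 2). NRXN2, NRXN3, SHANK1 and SHANK2 stood highest with quisinostat, and DLG4 stood lowest with mivebresib, at 2.16 and 3.52 against 8.84 to 9.67 in the control.

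NRXN2 encodes a presynaptic receptor for neuroligins. It had 1.17 and 0.950 normalised CPM in the control libraries, 2.30 and 2.58 with romidepsin, 9.34 and 9.49 with quisinostat, and 1.17 and 0.683 with mivebresib. Both HDAC inhibitor groups lay above all control libraries, while the mivebresib libraries overlapped them. Against the control, the log2 FC was 1.20 (SE 0.244, adjusted p = 0.00722, edgeR) for romidepsin and 3.14 (SE 0.218, adjusted p = 1.1e-05) for quisinostat, an 8.84-fold rise. For mivebresib it was -0.20 (adjusted p = 0.605), with a 95% interval from -0.848 to 0.456.

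NRXN3 encodes a neurexin of the same family. Its counts were 3 and 6 in the control, 21 and 23 with romidepsin, 56 and 52 with quisinostat, and 12 and 9 with mivebresib, so its group means ran from 0.163 ± 0.0798 CPM in the control to 1.71 ± 0.0827 with quisinostat (SD, n = 2). No drug group overlapped the control. The log2 FC was 2.19 (SE 0.419, adjusted p = 0.00548) for romidepsin and 3.37 (SE 0.374, adjusted p = 0.000132) for quisinostat in edgeR's test. With mivebresib the estimate was 1.21 (adjusted p = 0.0663, 95% interval 0.126 to 2.298) and was not called. NRXN3 reached the count filter only through the romidepsin and quisinostat groups. Its fold size rests on few control counts: leaving out a control library in turn moved the quisinostat estimate between 2.93 and 3.96 and the romidepsin estimate between 1.79 and 2.78.

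NLGN1, the neuroligin of excitatory synapses, was at a low level throughout. Its counts were 18 and 21 in the control, 12 and 24 with romidepsin, 14 and 26 with quisinostat, and 7 and 9 with mivebresib. The mivebresib libraries lay below the control libraries and the other groups overlapped them. The log2 FC for mivebresib was -1.26 (SE 0.509, adjusted p = 0.0728, edgeR), which missed the threshold. For romidepsin it was -0.18 (95% interval -1.195 to 0.836) and for quisinostat -0.14 (-1.142 to 0.857), wide intervals around 0.

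NLGN2, the neuroligin found at inhibitory synapses, had 23.3 and 27.1 normalised CPM in the control, 30.8 and 29.4 with romidepsin, 35.6 and 42.0 with quisinostat, and 40.2 and 43.9 with mivebresib. All drug libraries lay above both control libraries. The rise was called for quisinostat (log2 FC 0.62, SE 0.112, adjusted p = 0.00183) and for mivebresib (0.74, SE 0.112, adjusted p = 0.000899) in edgeR's test. No other gene of the 8 tested was upregulated by mivebresib. For romidepsin the log2 FC of 0.26 missed the threshold (adjusted p = 0.117), and it passed without control replicate 2 (0.37, adjusted p = 0.0283).

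NLGN3, an X-linked neuroligin, was not tested because no group reached the count filter. Its counts were 3 and 7 in the control, 2 and 3 with romidepsin, 8 and 4 with quisinostat, and 2 and 3 with mivebresib. Summed over both libraries, the 95% Poisson intervals, which cover counting error only, were 4.8 to 18.4 for the 10 control counts and 1.6 to 11.7 for the 5 counts of romidepsin and of mivebresib. A difference was not detectable at this depth.

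DLG4 encodes PSD-95, the scaffold that anchors neuroligins and glutamate receptors. Its normalised CPM was 9.67 and 8.84 in the control, 10.8 and 12.5 with romidepsin, 14.8 and 13.4 with quisinostat, and 2.16 and 3.52 with mivebresib. Thus the HDAC inhibitor libraries lay above the control libraries and the mivebresib libraries below them. Mivebresib lowered it 3.25-fold (log2 FC -1.70, SE 0.203, adjusted p = 0.000243, edgeR). The estimate was -1.39 without mivebresib replicate 1, short of the study's fold threshold, and -2.10 without replicate 2, and the adjusted p stayed below 0.05 in all 15 alternatives. Quisinostat raised DLG4 by 0.61 (SE 0.174, adjusted p = 0.0172), a call lost without quisinostat replicate 1 (0.52, adjusted p = 0.112) or replicate 2 (0.64, adjusted p = 0.0586). Romidepsin gave 0.33 (adjusted p = 0.185).

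Exons of DLG4 overlap those of ACADVL, a mitochondrial fatty acid dehydrogenase gene on the opposite strand, and the counting may or may not have used strand. ACADVL was far more abundant, at 162 ± 10.8 normalised CPM in the control (SD, n = 2). It moved the other way with mivebresib, to 211 ± 3.39 (log2 FC 0.37, adjusted p = 0.0061, edgeR). With romidepsin its log2 FC was -0.04 and with quisinostat -0.08, neither called.

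SHANK1 and SHANK2 encode scaffolds that join the PSD-95 layer to the actin cytoskeleton. SHANK1 had 1.77 and 1.53 normalised CPM in the control, 2.88 and 3.27 with romidepsin, 6.81 and 7.16 with quisinostat, and 1.35 and 1.69 with mivebresib. The groups of both HDAC inhibitors lay above the control and the mivebresib group overlapped it. Quisinostat raised SHANK1 by 2.08 (SE 0.174, adjusted p = 2.96e-05, edgeR) on the log2 scale and romidepsin by 0.89 (SE 0.186, adjusted p = 0.00794). The romidepsin call was lost without romidepsin replicate 2 (0.80, adjusted p = 0.0535). For mivebresib the log2 FC was -0.12 (95% interval -0.587 to 0.35).

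SHANK2 was lower, with 6 and 5 counts in the control, 8 and 7 with romidepsin, 35 and 36 with quisinostat, and 8 and 3 with mivebresib. The quisinostat libraries stood far above the rest, the romidepsin libraries lay just above the control libraries in normalised CPM, and the mivebresib libraries overlapped them. SHANK2 reached the count filter through the quisinostat group alone. The log2 FC was 2.49 (SE 0.421, adjusted p = 0.00133, edgeR) for quisinostat. It was 0.38 for romidepsin (95% interval -0.848 to 1.599) and 0.01 for mivebresib (-1.289 to 1.315), both wide and centred near 0.

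CNTNAP2 encodes CASPR2, which clusters potassium channels along myelinated axons. Its counts were 14 and 27 in the control, 31 and 45 with romidepsin, 31 and 30 with quisinostat, and 7 and 15 with mivebresib. The romidepsin libraries lay above the control libraries in normalised CPM, and the other drug groups overlapped them. No drug changed it past the threshold against the control: the log2 FC was 0.82 for romidepsin (adjusted p = 0.157), 0.39 for quisinostat (adjusted p = 0.458) and -0.88 for mivebresib (adjusted p = 0.172) in edgeR's test. Without control replicate 2 the romidepsin value passed (1.39, adjusted p = 0.0394).

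**Figure D3:**
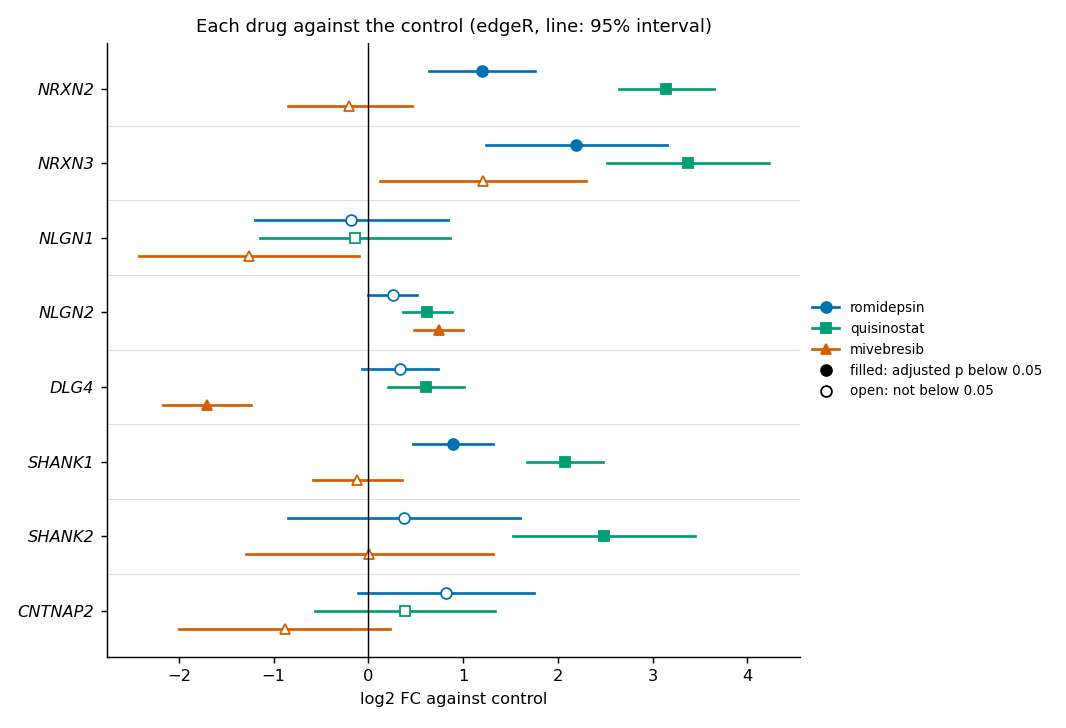
The log2 FC of each tested gene against the control for the 3 drugs, with 95% intervals and filled points for an adjusted p below 0.05. Filled points lie to the right of 0 for NRXN2, NRXN3 and SHANK1 with both HDAC inhibitors and to the left only for DLG4 with mivebresib (-1.70).

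Counted over the 8 tested genes, romidepsin upregulated 3 and downregulated 0, where 15.2% of all tested genes were higher and 15.8% lower by the same rule. Quisinostat upregulated 6 and downregulated 0, against 28.0% and 25.1% of all genes. Mivebresib upregulated 1 and downregulated 1, against 22.2% and 24.1%, so its share lies near the background. With the fold threshold added, romidepsin raised 1 gene (3.77% of all genes higher and 0.312% lower), quisinostat raised 4 (11.2% and 1.03%), and mivebresib raised 0 and lowered 1 (3.96% and 4.36%). NRXN3 and SHANK2 were tested only because a drug group was high, so these counts describe the genes and support nothing further.

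The background itself moved with the scaling. By library size alone, the median over all tested genes shifted from -0.0036 to 0.20 for quisinostat, and its calls from 4231 higher and 3793 lower to 5625 and 2144. Upper-quartile factors gave 5048 and 2673. For romidepsin the calls went from 2293 higher and 2377 lower to 2787 and 1700 by library size alone and to 2883 and 1665 with upper-quartile factors.

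Romidepsin and quisinostat were given at the same dose, and 5 of the 8 tested genes were higher with quisinostat. The study found romidepsin the more potent of these drugs in its viability tests. The same dose need not be the same effective dose, so the tests compare the treatments as given. NRXN2 was 3.85-fold higher with quisinostat than with romidepsin (log2 FC 1.94, SE 0.193, adjusted p = 0.00025, edgeR), SHANK2 4.31-fold (2.11, SE 0.397, adjusted p = 0.00438) and SHANK1 2.27-fold (1.18, SE 0.160, adjusted p = 0.000972). NRXN3 differed by 1.18 (adjusted p = 0.0131) and NLGN2 by 0.37 (adjusted p = 0.0328), but neither held in every setting. The NRXN3 call was lost without any single library of either drug (adjusted p = 0.0587 to 0.0946) and in DESeq2 (0.0549), and the NLGN2 call without romidepsin replicate 1 (0.107), romidepsin replicate 2 (0.158), quisinostat replicate 2 (0.319) or either mivebresib library (0.0504). In all, 5 genes were higher and 0 lower, against 21.0% and 14.6% of all tested genes. The 5 include NRXN3 and SHANK2, tested only because a drug group was high, so this count is a description. No difference was called for DLG4 (95% interval -0.112 to 0.667), NLGN1 (-0.975 to 1.048) or CNTNAP2 (-1.306 to 0.444), whose intervals leave differences of those sizes possible.

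Mivebresib was given at another dose than the HDAC inhibitors, so these tests compare the treatments as given. Against quisinostat, mivebresib left 6 genes lower and 0 higher, against 31.5% and 26.2% of all tested genes. The 6 include NRXN3 and SHANK2, tested only because an HDAC inhibitor group was high, so this count too is a description. NRXN2 was 10.1-fold lower (log2 FC -3.34, adjusted p = 7.19e-06, edgeR), DLG4 4.95-fold (-2.31, adjusted p = 2.62e-05), SHANK1 4.58-fold (-2.19, adjusted p = 1.9e-05) and NRXN3 4.46-fold (-2.16, adjusted p = 0.000534). SHANK2 was 5.55-fold lower (-2.47, adjusted p = 0.00114), with -3.33 without mivebresib replicate 1 and -1.93 without replicate 2. CNTNAP2 was lower by 1.27 on the log2 scale (adjusted p = 0.0424), a call lost without either quisinostat library (adjusted p = 0.131 and 0.122), without mivebresib replicate 1 (0.221), without romidepsin replicate 2 (0.0512) and in DESeq2 (0.0547). NLGN2 differed by 0.11 (95% interval -0.137 to 0.366).

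Against romidepsin, mivebresib left 5 genes lower and 1 higher, with 25.2% of all tested genes lower and 23.7% higher. The 5 include NRXN3, tested only because the HDAC inhibitor groups were high. DLG4 was 4.09-fold lower (log2 FC -2.03, adjusted p = 8.17e-05, edgeR), NRXN2 2.63-fold (-1.40, adjusted p = 0.00197) and SHANK1 2.02-fold (-1.01, adjusted p = 0.00239). CNTNAP2 was 3.25-fold lower (-1.70, adjusted p = 0.0133), which was lost without romidepsin replicate 2 (0.0824) or mivebresib replicate 1 (0.0909). NRXN3 was lower by 0.98 on the log2 scale (adjusted p = 0.0487), a call that 5 of 16 settings made. NLGN2 was the gene higher with mivebresib (0.48, adjusted p = 0.00722), lost without romidepsin replicate 2 (0.0545) or mivebresib replicate 2 (0.0562).

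**Figure D4:**
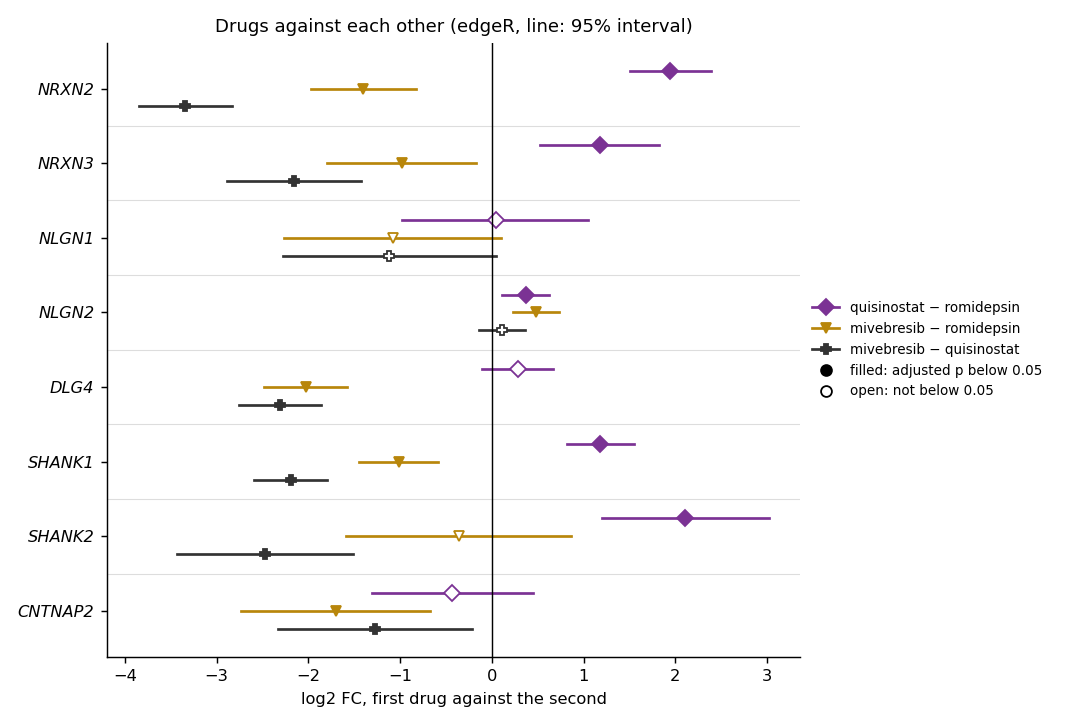
The log2 FC of each tested gene between drugs, the first drug named against the second, with 95% intervals and filled points for an adjusted p below 0.05. NRXN2 lies at 1.94 between quisinostat and romidepsin and at -3.34 between mivebresib and quisinostat, and SHANK2 at 2.11 and -2.47.

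The other genes of the synaptic adhesion pathway were taken as 4 lists of 88 genes, of which 62 were tested. In 10 of the 62 the control libraries did not reach the count filter, so these were tested only because a drug group was high, and the counts and medians below are descriptions that include them. Among these 10 are FLRT3, ADGRL2, NLGN4X, TENM1, PPFIA4 and DLGAP3. Romidepsin upregulated 25 of the 62 and downregulated 2, with a median log2 FC of 0.31 against -0.012 over all tested genes. Quisinostat upregulated 40 and downregulated 9 (median 0.94 against -0.0036), and mivebresib upregulated 22 and downregulated 20 (median 0.05 against 0.0067). Of all tested genes, romidepsin raised 15.2% and lowered 15.8%, quisinostat raised 28.0% and lowered 25.1%, and mivebresib raised 22.2% and lowered 24.1%, and the counts of each list are to be read against these shares. The 27 romidepsin calls became 16 without romidepsin replicate 1, 16 in a fit of only the 4 libraries compared, and 34 without control replicate 2.

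Adhesion partners of neurexins and neuroligins numbered 43, with 29 tested. Romidepsin raised 12 and lowered 1, quisinostat raised 20 and lowered 1, and mivebresib raised 9 and lowered 9. The shares of all tested genes were 15.2% higher and 15.8% lower, 28.0% and 25.1%, and 22.2% and 24.1% for the same drugs. FLRT3, a latrophilin ligand, had 4 and 5 counts in the control, 133 and 117 with romidepsin and 219 and 264 with quisinostat (log2 FC 4.69 and 5.53, adjusted p = 6.17e-05 and 3.16e-06, edgeR). ADGRL2, a latrophilin receptor, rose by 3.07 with romidepsin and 4.43 with quisinostat. NLGN4X, the X-linked neuroligin outside the listed 9, had 1 and 0 counts in the control, 8 and 4 with romidepsin and 32 and 34 with quisinostat, so no fold is given. Its quisinostat call had an adjusted p of 0.000372 in edgeR's test, and its romidepsin call (adjusted p = 0.0433) was made in 7 of 16 settings. It was lost in DESeq2 (0.088), without the count filter (0.0582), in a fit of only the 4 libraries compared (0.1), with a replicate block (0.0605), without control replicate 2 (0.118), without either romidepsin library (0.206 and 0.0578) and without either quisinostat library (0.0748 and 0.0752). With mivebresib the largest changes were a fall of SLITRK6, a ligand of presynaptic phosphatases (106 and 129 counts to 7 and 8, log2 FC -3.94), and rises of the teneurins TENM1 (3.32) and TENM3 (2.33).

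Of the presynaptic adaptors, which couple neurexins to the release machinery, 9 of 10 were tested. Romidepsin raised 3 and lowered 0 (15.2% and 15.8% of all tested genes). Quisinostat raised 6 and lowered 2 (28.0% and 25.1%), and mivebresib raised 4 and lowered 3 (22.2% and 24.1%). LIN7A, a partner of CASK, rose with all 3 drugs, by 1.57, 3.28 and 1.00 on the log2 scale for romidepsin, quisinostat and mivebresib (adjusted p = 0.000518, 2.6e-06 and 0.00276, edgeR). APBA1 rose by 1.44 with romidepsin and 2.05 with quisinostat, and PPFIA3 by 0.57 with romidepsin. PPFIA4 rose by 1.84 with quisinostat and 1.79 with mivebresib, the latter call lost without mivebresib replicate 2 (adjusted p = 0.0556). LIN7B fell by 0.83 with mivebresib, a call lost without control replicate 1 (adjusted p = 0.097) or without either mivebresib library (0.077 and 0.0572).

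Other postsynaptic scaffolds numbered 23, with 21 tested. Romidepsin raised 8 and lowered 1 (15.2% and 15.8% of all tested genes). Quisinostat raised 13 and lowered 5 (28.0% and 25.1%), and mivebresib raised 8 and lowered 6 (22.2% and 24.1%). The numbers lowered by quisinostat and by mivebresib are near those shares. DLGAP3, which links PSD-95 to SHANK, rose by 3.33 with romidepsin and 5.22 with quisinostat from 4 and 5 control counts (adjusted p = 0.000449 and 5.45e-06, edgeR). Its rise of 1.72 with mivebresib (adjusted p = 0.0136) was lost without control replicate 1 (0.0529) or mivebresib replicate 2 (0.101). HOMER2 rose by 0.82 with romidepsin, a call lost without romidepsin replicate 2 (adjusted p = 0.0626), and by 2.07 with quisinostat. HOMER3 fell by 0.84 with romidepsin. DLG3, a scaffold of the same family as DLG4, fell by 1.34 with mivebresib (78 and 70 counts to 29 and 29, adjusted p = 0.000716). GRIP2 rose by 1.84 with quisinostat, and with mivebresib it went from 13 and 12 counts to 2 and 1 (adjusted p = 0.0143), lost without mivebresib replicate 1 (0.0535) or replicate 2 (0.0918).

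Around CNTNAP2, only 3 of 12 genes of the axonal contactin complex were tested. ADAM22, a receptor for LGI proteins, rose with every drug, by 1.39 with romidepsin, 3.26 with quisinostat and 2.14 with mivebresib (adjusted p = 0.000861, 2.6e-06 and 3e-05, edgeR). EPB41L3, a cytoskeletal anchor, rose by 0.31 with romidepsin, a call lost without either romidepsin library (adjusted p = 0.0975 and 0.0926), and fell by 0.37 with mivebresib. CNTNAP1 fell by 0.92 with mivebresib. Its fall of 0.46 with quisinostat (adjusted p = 0.0452) was -0.26 by library size alone (adjusted p = 0.22), -0.15 without control replicate 2 (0.245), and not past the threshold without any other single library but control replicate 1 (0.0675 to 0.163).

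**Figure D5:**
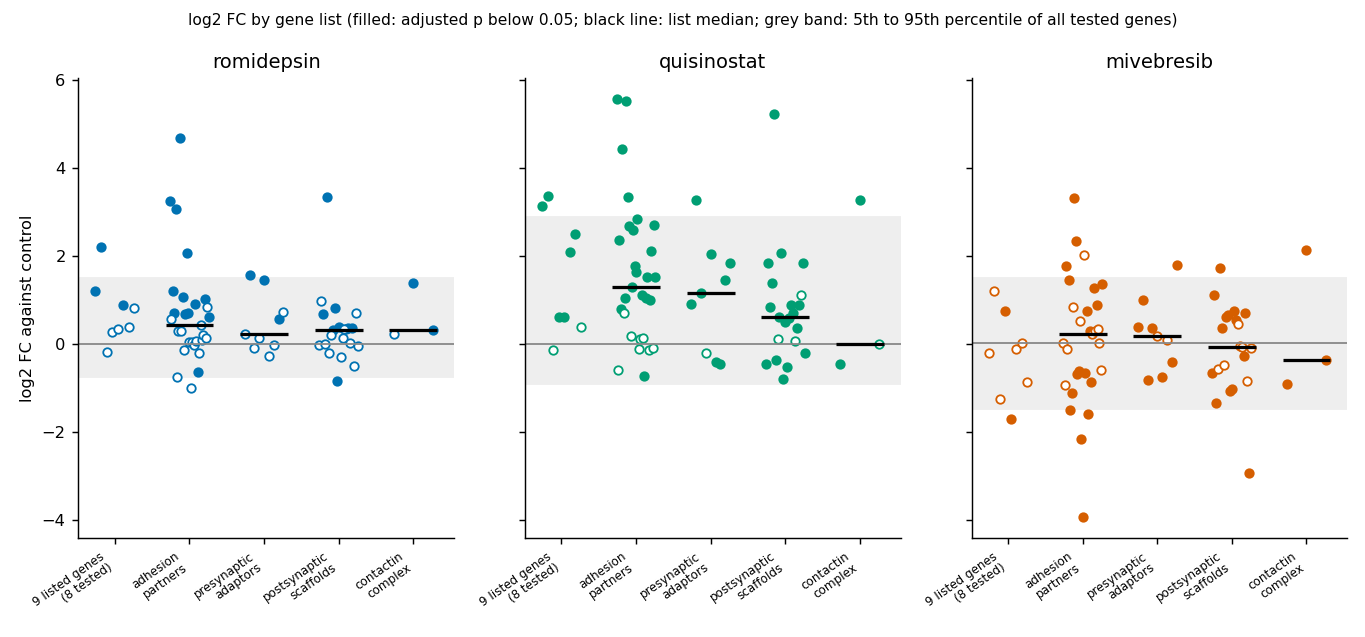
The log2 FC against the control for the 8 tested genes and for the 4 lists, with filled points for an adjusted p below 0.05, a black line at each list's median and a grey band from the 5th to the 95th percentile of all tested genes. The list medians with quisinostat lie at 1.28, 1.16, 0.60 and -0.01 from left to right, and NLGN4X and GRIP2 are drawn at fitted values that rest on counts of 0 to 3 in a group.

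The genes whose 3 changes against the control most resembled those of a listed gene were found among 12020 tested genes by the root mean square difference of the log2 FC. For NRXN2 they included ZNF883 (0.072) and RSPO4 (0.149). For NRXN3 they were DTNA (0.240), FAM19A5 (0.250) and ACSF2 (0.263). SHANK2 lay nearest to KNDC1 (0.082), UBE2QL1 (0.0953) and ANKRD29 (0.160), and SHANK1 to DKK3 (0.0303), CCDC148 (0.0831) and PCDHB10 (0.0902). All are the nearest of many candidates. The SE of the log2 FC against the control was 0.421 to 0.57 for SHANK2 and 0.374 to 0.475 for NRXN3. These exceed the differences given for both genes, so the order of their neighbours is not resolved.

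Markers of other cell types were read beside these results. Melanocytic markers had a high summed level in every library, 4290 to 5530 CPM in the control, 4850 to 5120 with romidepsin, 3650 to 4190 with quisinostat and 3720 to 3800 with mivebresib. TYRP1 carried most of this sum, and DCT had 0 to 5 counts per library and was not tested. All 8 had a count in every group. Of the 7 tested, romidepsin lowered 1, quisinostat 3 and mivebresib 5, against 15.8%, 25.1% and 24.1% of all tested genes. The romidepsin share is near that background. Of 8 neuronal identity markers, 6 were tested. Romidepsin raised 4 and lowered 1, quisinostat raised 5 and lowered 0, and mivebresib raised 2 and lowered 0. Of all tested genes, romidepsin raised 15.2% and lowered 15.8%, quisinostat 28.0% and 25.1%, and mivebresib 22.2% and 24.1%. RBFOX3 (6 and 7 control counts) and STMN2 (1 and 0) were tested only because a drug group was high. The counts and the median below include both and are descriptions. The summed level of the 8 neuronal identity markers was 100 to 104 CPM in the control, 91.6 to 94.1 with romidepsin, 196 to 207 with quisinostat and 468 to 495 with mivebresib. MAP2 and TUBB3 carried most of this sum and were the 2 markers raised by mivebresib, by 2.35 and 2.23 on the log2 scale. The median log2 FC over the 6 tested markers was 0.89 with romidepsin, 2.95 with quisinostat and 0.55 with mivebresib. ELAVL4 was at 0 in both control libraries and in both mivebresib libraries.

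The remaining marker lists were read in the same way. Endothelial markers summed to between 0.602 and 0.913 CPM in the control, 3.03 and 3.57 with romidepsin, 5.16 and 5.83 with quisinostat, and 1.13 and 1.40 with mivebresib. Of their 2 tested members, romidepsin raised 1 and quisinostat 2 (15.2% and 28.0% of all tested genes), while CDH5 was at 0 in every library. PECAM1, with 2 and 5 control counts, was tested only because a drug group was high. Fibroblast markers summed to between 14.2 and 22.1 CPM in the control, 20.3 and 24.6 with romidepsin, 34.7 and 35.5 with quisinostat, and 8.19 and 10.6 with mivebresib, and LUM was at 0 in all libraries but 1. Of the 2 tested fibroblast markers, romidepsin raised 1 and quisinostat 2, against 15.2% and 28.0% of all tested genes. Mivebresib lowered 1 of them, against 24.1%. Leukocyte markers lay between 61.2 and 83.3 CPM over all groups, with CD3E at 0 throughout. Glial markers summed to between 547 and 671 CPM in the control, 526 and 559 with romidepsin, 373 and 404 with quisinostat, and 196 and 204 with mivebresib, with AQP4 at 0 throughout. Of 4 tested glial markers, quisinostat lowered 2 (25.1% of all tested genes), and mivebresib raised 1 and lowered 1 (22.2% and 24.1%). Romidepsin raised 0 and lowered 0 (15.2% and 15.8%). GFAP (2 and 9 control counts) and S100B (12 and 6) were tested only because a drug group was high. The part of these lists in the changes of the 9 genes was not tested.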

How the data were processed

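RNA of MP38 cells in 4 groups of 2 libraries was sequenced, and the authors processed the reads with BioJupies against hg38, per the submitters' processing notes. The aligner, the gene annotation and the strand setting of the counting are not given in the sources used here. The authors deposited raw counts for 35238 gene symbols, which were tested here. Their deposited log10 table equals log10(CPM + 1) of those counts to within 1e-06 and was used only for that check. A deposited quantile-normalized table was not used.

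Counts were analysed in R 4.3.3 with edgeR 4.0.16: filterByExpr by group (minimum count 10, a CPM of at least 0.345 in 2 libraries), TMM factors (0.9395 to 1.0928), and quasi-likelihood tests from 1 model of all 8 libraries, with Benjamini-Hochberg adjustment over 15085 genes (biological coefficient of variation 0.0938). The threshold for a call was an adjusted p below 0.05. Confidence intervals are 95%. CPM per kb used the summed exon length in GENCODE 29. Promoter sequences came from RefSeq. Groups were taken from the treatment labels. Total counts were 28483235 to 29359024 per library, and precision is limited by the 2 libraries per group and, for genes of few counts, by depth.

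The 9 genes, the companion and marker lists and the alternatives were chosen with earlier results of these data known. The text names all 9 genes, and from each companion list the 3 genes per drug with the largest log2 FC among those called. Genes of like pattern were sought among tested genes averaging at least 1 in log2 CPM, for the 4 genes with the largest change, and 1 gene found this way is not reported here. On simulated counts for quisinostat against the control, over 15085 genes, edgeR recovered 76.9% of 108 genes changed by 1 log2 unit and 97.8% of 92 changed by 2, with 8 false calls. The simulation drew every gene with the same biological coefficient of variation in all groups and changed no other gene. The data differ in both, so these rates are not those of the 9 genes. Alternatives were upper-quartile factors, library size alone, DESeq2 1.42.0, no filter, limma-voom (limma 3.58.1), only the 4 libraries compared, a replicate block, and each library left out in turn, where the remaining library is assumed to vary like the other groups. All but the fit without a filter used the same 15085 genes. Python 3.11.15 with scipy 1.17.1, pandas 2.3.3 and matplotlib 3.10.9 made the tables and figures.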

Additional observations from a re-analysis of the deposited data

How the results depend on the processing

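Both the 2 libraries per group and the low counts of NLGN3, NRXN3 and SHANK2 limit these results. Over 15 alternatives and 6 comparisons, 668 of 720 values of the tested genes kept their direction and side of the threshold, 33 lost their call, 3 gained it and 16 turned in sign, none of them a called value. Against the control, 3 of 360 lost their call. Of 510 values of the named companion genes, 34 lost their call and none turned. The causes were not tested.

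Leaving out a library in turn moved the number of genes changed by romidepsin from 3 to between 2 and 5, those that differed between quisinostat and romidepsin from 5 to between 3 and 5, and those between mivebresib and romidepsin from 6 to between 3 and 6. The genes past the fold threshold with mivebresib went from 1 to between 0 and 1, and the companion genes changed by romidepsin from 27 to between 16 and 34, with 16 in a fit of only the 4 libraries compared.

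Replicates of the same number did not pair: the correlations of their deviations ran from -0.162 to 0.158. With a replicate block, the genes changed were 3 for romidepsin, 6 for quisinostat and 3 for mivebresib, where NLGN1 was gained (log2 FC -1.28, adjusted p = 0.0403, edgeR).

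Turned signs, all for uncalled values, were as follows. By library size alone, NLGN1 with quisinostat stood at 0.057 and NLGN2 between mivebresib and quisinostat at -0.064. With limma-voom, SHANK2 with mivebresib stood at -0.125. NLGN1 between quisinostat and romidepsin was -0.004 in a fit of only the 4 libraries. With each library left out in turn, the estimates ran from -0.631 to 0.142 for NRXN2 with mivebresib, from -0.762 to 0.235 for NLGN1 with romidepsin, from -0.694 to 0.219 for NLGN1 with quisinostat and from -0.527 to 0.619 for NLGN1 between quisinostat and romidepsin. They ran from -0.289 to 0.031 for SHANK1 with mivebresib, from -0.849 to 0.555 for SHANK2 with mivebresib, from -1.225 to 0.179 for SHANK2 between mivebresib and romidepsin, and from -0.043 to 0.959 for CNTNAP2 with quisinostat.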
